A study of Homo sapiens with 20 samples.

Results

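The cell cycle and mitosis genes described here are 44 listed genes, all present among the 12558 genes of the count table. They were listed by name, without a cut on any measured value, but the list was made with earlier results of these data known. They were sorted by the phase in which their products act, with 27 genes of G1 and S phase (G1/S) and 17 genes of G2 and mitosis (G2/M). They were measured in HEC-1A cells, a human cell line established from an endometrial adenocarcinoma, that carried a stable lentiviral shRNA against EIF4G2 (EIF4G2KD, also named DAP5) or against GFP (Control, shNT) and that were sorted by FACS on the surface antigen CD133 (PROM1). All cells had been through puromycin selection, the knock-down rests on 1 shRNA, and no population was treated further. The 19 libraries with counts were 5 of CD133- Control, 5 of CD133- EIF4G2KD, 4 of CD133+ Control and 5 of CD133+ EIF4G2KD, each made from 15000 sorted cells by a bulk form of MARS-seq, in which reads come from the 3' ends of transcripts. The titles number the libraries 1 to 5 within a population, and CD133+ Control 3 had no counts. The submitters give 4 independent experiments while the titles number 5 libraries, so n may exceed the number of independent experiments, and no label says that a number marks a shared experiment.

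Cells pass from G1 into S phase when D-type cyclins with CDK4 or CDK6, and then cyclin E with CDK2, phosphorylate the retinoblastoma protein RB1 and release E2F transcription factors, which switch on the genes for origin licensing, nucleotide supply and DNA synthesis. Later, cyclin A and cyclin B with CDK1 drive entry into mitosis, where Aurora and Polo-like kinases build the spindle, BUB1 and BUB1B hold the checkpoint, and CDC20 and UBE2C let the anaphase-promoting complex destroy cyclin B. Most of these transcripts are made in 1 window of the cycle, so in a bulk sample their level also depends on how many cells are in that window. Fewer cells in a phase and less RNA per cell cannot be told apart in such samples.

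The transcription of G2/M genes depends on CCAAT boxes, bound by NF-Y, and on the cell cycle genes homology region (CHR), bound by the DREAM and B-MYB complexes, whereas many G1/S genes carry E2F elements. The RefSeq table (GRCh38.p14) held a promoter window, from 250 bases before to 50 bases after the start of transcription, for 35 of the 44 members. CCND1, CCNE2, CDK2, MCM4, MCM5, AURKA, BIRC5, TPX2 and UBE2C were not in that table. The motifs were searched on both strands. The CHR was TTTGAA or its variant TTTAAA, the CCAAT box was CCAAT, and E2F was TTCGCGC with the variants TTGGCGC and likewise TTCCCGC. Matches of E2F can overlap each other, because its forms on opposite strands share letters. The CHR was found in 9 of 13 G2/M promoters (69.2%), in 5 of 22 G1/S promoters (22.7%) and in 24.3% of the 27305 promoters of the table. A CCAAT box was found in 11 of 13 G2/M promoters (84.6%), in 10 of 22 G1/S promoters (45.5%) and in 35.7% of all promoters, and both motifs stood together in 8 of 13 (61.5%), 3 of 22 (13.6%) and 9.49%, respectively. E2F was found in 11 of 22 G1/S promoters (50.0%), 3 of 13 G2/M promoters (23.1%) and 11.2% of all promoters. Among the 8175 promoters of tested genes the shares were 14.4% for the CHR, 37.0% for CCAAT, 5.93% for both and 18.6% for E2F, so the CHR share of the G1/S members lay above the tested genes and below the whole table. A match describes letters only and shows no binding.

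The 200 bases before the start are shown for 3 G2/M members whose transcripts parted from each other in CD133- EIF4G2KD 5 and whose promoters all hold CHR and CCAAT matches, and for 2 G1/S members with E2F matches. Each is written 5' to 3' along the gene, and capitals mark the CHR, CCAAT and E2F matches in either orientation.
TOP2A promoter (chr17:40417897-40418096, minus strand): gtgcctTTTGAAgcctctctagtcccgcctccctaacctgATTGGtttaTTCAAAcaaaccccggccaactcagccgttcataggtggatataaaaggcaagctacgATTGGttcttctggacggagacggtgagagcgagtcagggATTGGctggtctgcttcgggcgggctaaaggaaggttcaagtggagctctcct
CCNB1 promoter (chr5:69166950-69167149, plus strand): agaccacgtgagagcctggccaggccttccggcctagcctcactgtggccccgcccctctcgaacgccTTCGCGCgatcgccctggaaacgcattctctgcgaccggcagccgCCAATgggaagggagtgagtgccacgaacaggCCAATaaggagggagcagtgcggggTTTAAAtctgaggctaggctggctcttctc
CDC20 promoter (chr1:43358781-43358980, plus strand): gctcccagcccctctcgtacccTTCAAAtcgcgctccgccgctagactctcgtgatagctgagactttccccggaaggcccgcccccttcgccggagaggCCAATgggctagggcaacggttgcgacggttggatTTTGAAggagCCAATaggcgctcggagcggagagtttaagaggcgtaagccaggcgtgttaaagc
PCNA promoter (chr20:5126623-5126822, minus strand): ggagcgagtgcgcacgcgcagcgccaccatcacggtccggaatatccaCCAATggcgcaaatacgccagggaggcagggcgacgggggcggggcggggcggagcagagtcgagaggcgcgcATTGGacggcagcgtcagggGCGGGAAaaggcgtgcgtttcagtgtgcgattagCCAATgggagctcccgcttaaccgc
CDT1 promoter (chr16:88803589-88803788, plus strand): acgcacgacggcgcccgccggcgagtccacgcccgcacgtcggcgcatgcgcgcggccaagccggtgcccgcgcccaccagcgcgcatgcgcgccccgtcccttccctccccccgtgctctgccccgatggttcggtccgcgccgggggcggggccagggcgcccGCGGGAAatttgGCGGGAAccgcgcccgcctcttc
TOP2A and CDC20 each hold 2 CHR matches, and CCNB1 holds 1 that begins 30 bases before the start, downstream of CCAAT boxes that begin 87 and 55 bases before it, and also an E2F match. MCM2 held 2 E2F matches, at bases 4 and 7 after the start, while no motif was found in the window of CDKN2A. Only the first window listed for a gene was searched, and that of CDKN2A lies at the upstream end of the gene. Other starts of transcription within a gene were not searched.

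The libraries held 1679447 to 5234905 counts in all, with a median of 3047418, and the 44 members together took 0.56% to 0.95% of them. EIF4G2, the target of the shRNA, was at 193 to 360 CPM (counts per 1000000 counts of the library, with totals scaled for composition) in CD133- Control and at 36.8 to 164 in CD133- EIF4G2KD, with no overlap, although its log2 fold change of -1.48 (SE 0.33) had an adjusted p of 0.12 by edgeR. Among CD133+ libraries the EIF4G2 ranges overlapped, with 275 to 377 CPM for the controls and 130 to 350 for the knock-down. Their means were 337 CPM (SD 44.6, n = 4) and 247 CPM (SD 79.3, n = 5). CD133+ EIF4G2KD 1, with 350 CPM, exceeded CD133+ Control 4 and 5, while the remaining knock-down libraries lay below all controls. The lowest value came from CD133+ EIF4G2KD 3. Results given below for the knock-down in CD133+ cells rest on this overlapping difference in the target's RNA. PROM1 was at 0.43 to 3.31 CPM in the 10 CD133- libraries and at 11.6 to 26.4 in the 9 CD133+ libraries, which did not overlap. All 7 epithelial markers were in the table, none of the 7 fibroblast or 4 endothelial markers was, and of 5 leukocyte markers only CD68 was, at up to 3.22 CPM. The first principal component, with 25.0% of the variance, set CD133- EIF4G2KD 2, 4 and 5 and CD133+ EIF4G2KD 3 apart from the other 15 libraries, and results that rest on them are also given without them. These 4 libraries had the lowest EIF4G2 of all 19.

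Of the 44 members, 43 passed the filter on low counts and were tested. CDKN2B, which encodes the CDK4 and CDK6 inhibitor p15, did not, at 0 to 1.68 CPM over the libraries. A member was called when the adjusted p of edgeR's quasi-likelihood test, over 10338 genes, was below 0.05. The comparisons share populations, so their results are not independent of each other.

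The knock-down in CD133- cells left no member past the test. The same test called 0.00967% of all tested genes (1 gene), and DESeq2 also called no member. Only CCNE2, a cyclin E that activates CDK2, had an unadjusted p below 0.05, so 1 of 43 members did where 10.6% of all tested genes did. No member's populations failed to overlap, where 0.832% of all tested genes lay wholly higher and 0.619% wholly lower. The median log2 fold change of the members was 0.03, against 0.02 for all tested genes, and the 95% interval of 32 of the 43 lay within a 2-fold change either way. For the remaining members a change of 2-fold lay within the interval.

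CCNE2 was at 6.57, 3.10, 4.64, 6.40 and 3.34 CPM in CD133- Control 1 to 5 and at 4.29, 1.83, 3.08, 0 and 0 CPM in CD133- EIF4G2KD 1 to 5. The zeros allow up to 1.38 and 1.28 CPM (3 counts), and they fell in libraries 4 and 5, which also had the lowest EIF4G2 of all libraries. The log2 fold change was -1.14 (SE 0.51, adjusted p = 0.45 by edgeR), and it was -0.37 without the 4 libraries apart. BUB1B, the checkpoint kinase BUBR1, was also lowest there. It was at 14.7 to 28.9 CPM in CD133- Control and at 24.4, 17.1, 14.5, 4.15 and 2.57 CPM in CD133- EIF4G2KD 1 to 5. Its log2 fold change of -0.81 (SE 0.41, adjusted p = 0.49 by edgeR) was -0.22 without those 4 libraries.

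The knock-down in CD133+ cells left 3 members past the test, MCM2 higher and CDKN2A and CCND1 lower. The background was 7.86% of all tested genes (813 genes), with 3.52% higher and 4.34% lower, so the 3 of 43 members stood near the share of all genes. At an unadjusted p below 0.05 there were 5 members, where 19.7% of all tested genes passed. None of the 17 G2/M members passed in this fit, which leaves the library number out, with a median log2 fold change of 0.04. With the number in the fit, CENPF and AURKA of G2/M passed, and more of all tested genes did too, as given below. The 26 tested G1/S members had a median of -0.04. At the study's thresholds, which also ask for a change of 1.5-fold, MCM2 and CDKN2A passed (background 5.99%). The same 3 members were the only ones whose CD133+ populations did not overlap, where 4.46% of all tested genes lay wholly higher and 5.59% wholly lower.

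MCM2, a subunit of the MCM helicase that is loaded at origins before S phase, lies on the plus strand of chromosome 3 (GRCh38, 127598410 to 127622436). The levels were 172, 151, 174 and 173 CPM in CD133+ Control 1, 2, 4 and 5 and 249, 346, 285, 221 and 264 CPM in CD133+ EIF4G2KD 1 to 5. Every knock-down library was thus above every control library. The log2 fold change was 0.70 (SE 0.14, adjusted p = 0.0022 by edgeR), and the call held without any of the 19 libraries in turn. In CD133- cells MCM2 was at 193 ± 22.0 CPM in Control and 215 ± 25.2 in EIF4G2KD (SD, n = 5 each), with a log2 fold change of 0.15 (SE 0.13). The difference between the knock-down effects, 0.55 (SE 0.18), had an adjusted p of 0.15 by edgeR, so MCM2 was not shown to respond differently in CD133+ cells.

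CDKN2A encodes the CDK4 and CDK6 inhibitor p16 and, from another reading frame, p14ARF, which stabilises p53. Its values in CD133+ Control 1, 2, 4 and 5 were 444, 425, 429 and 494 CPM, and those in CD133+ EIF4G2KD 1 to 5 were 251, 249, 319, 288 and 341 CPM. The highest knock-down library was below the lowest control library. The log2 fold change was -0.63 (SE 0.12, adjusted p = 0.0024 by edgeR), and the call held without any library in turn. In CD133- cells it was at 373 ± 49.5 CPM in Control and 392 ± 24.9 in EIF4G2KD (SD, n = 5 each), with a log2 fold change of 0.07 (SE 0.12).

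CDKN2A was the only member past the test of the difference between the knock-down effects in CD133+ and CD133- cells. The log2 difference, CD133+ minus CD133-, was -0.70 (SE 0.17, adjusted p = 0.034 by edgeR), where the test of the difference called 1.94% of all tested genes, with 1.35% lower. That call was lost, with an adjusted p up to 0.11, without any 1 of CD133- Control 1, 2 or 3, CD133- EIF4G2KD 1, 4 or 5, CD133+ Control 1, 2, 4 or 5 or CD133+ EIF4G2KD 1 or 2, and without the 4 libraries apart the difference was -0.78 with an adjusted p of 0.097. CDKN2A was also the only member called between the knock-down populations, with a log2 fold change of 0.44 in CD133- EIF4G2KD over CD133+ EIF4G2KD (SE 0.12, adjusted p = 0.023 by edgeR). The background there was 7.71%, with 4.51% higher. The 95 tested genes of the short arm of chromosome 9, which holds CDKN2A, had a median of 0.64 in this comparison. Of these, 37 (38.9%) passed the test and 67 lay above CDKN2A. The knock-down populations did not overlap for CDKN2A either, where 3.93% of all tested genes lay wholly higher and 2.58% wholly lower. The call was lost without CD133- EIF4G2KD 4 or CD133+ EIF4G2KD 1 or 2, and without the 4 libraries apart, where the value was 0.51 with an adjusted p of 0.12. At the study's thresholds it was not called (background 5.86%).

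Most tested genes of the chromosome that holds CDKN2A were lower in CD133+ EIF4G2KD than in CD133+ Control. CDKN2A lies on the short arm of chromosome 9 (GRCh38, minus strand, 21967752 to 21995301), and the 95 tested genes of that arm had a median log2 fold change of -0.66 in CD133+ EIF4G2KD over CD133+ Control, with 40 of them (42.1%) past the test. With its -0.63, CDKN2A had 52 genes of the arm below it and 42 above it. In CD133- cells the median of the arm was 0.08, and for the difference of the effects it was -0.76, near the -0.70 of CDKN2A. The 337 tested genes of the long arm of chromosome 9 were lower in CD133+ cells too, with a median of -0.45 and 79 past the test. Of the other members, CENPF lies on the long arm of chromosome 1, whose 446 tested genes had a median of 0.50, and CCNE1 on the long arm of chromosome 19, whose 404 genes had a median of -0.43. The 594 genes of chromosome 3 (MCM2) and the 595 genes of chromosome 11 (CCND1) had medians of 0.04 and 0.07. The part of these shifts of whole arms in the values of the members was not tested.

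**Figure D1:**
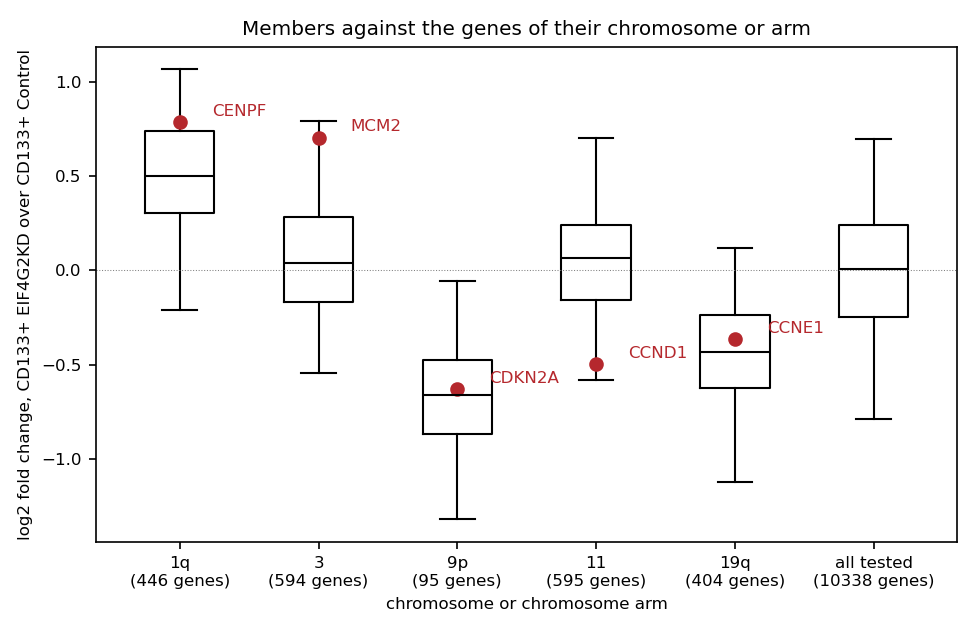
Log2 fold change of CD133+ EIF4G2KD over CD133+ Control (vertical axis) for all tested genes of a chromosome or arm (boxes, quartiles with the median; whiskers, 5th to 95th percentile) and for 1 member on each (red point). CDKN2A at -0.63 sat next to the median of its arm, -0.66, while MCM2 at 0.70 and CCND1 at -0.50 stood away from medians of 0.04 and 0.07.

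CCND1, cyclin D1, which brings CDK4 and CDK6 to RB1, lies on the plus strand of chromosome 11 (GRCh38, 69641156 to 69654474). CCND1 levels were 1206, 1035, 1201 and 1272 CPM in CD133+ Control 1, 2, 4 and 5 and 808, 984, 786, 697 and 899 CPM in CD133+ EIF4G2KD 1 to 5. All knock-down libraries were below all control libraries, by a narrow margin between the controls' lowest and the knock-downs' highest, both numbered 2. The log2 fold change was -0.50 (SE 0.14, adjusted p = 0.027 by edgeR). The call was lost without CD133+ Control 1, 4 or 5 or CD133+ EIF4G2KD 1, 3 or 4, with adjusted p-values up to 0.080. In CD133- cells it was at 1047 ± 124 CPM in Control and 1016 ± 166 in EIF4G2KD (SD, n = 5 each), and the difference of the effects, -0.45 (SE 0.19), had an adjusted p of 0.27 by edgeR. CCND1 overlaps LTO1, and CDKN2A overlaps the antisense gene CDKN2B-AS1, on the opposite strand, and since the strand setting of the counting is not given in the sources used here, reads of such neighbours may not have been told apart.

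**Figure D2:**
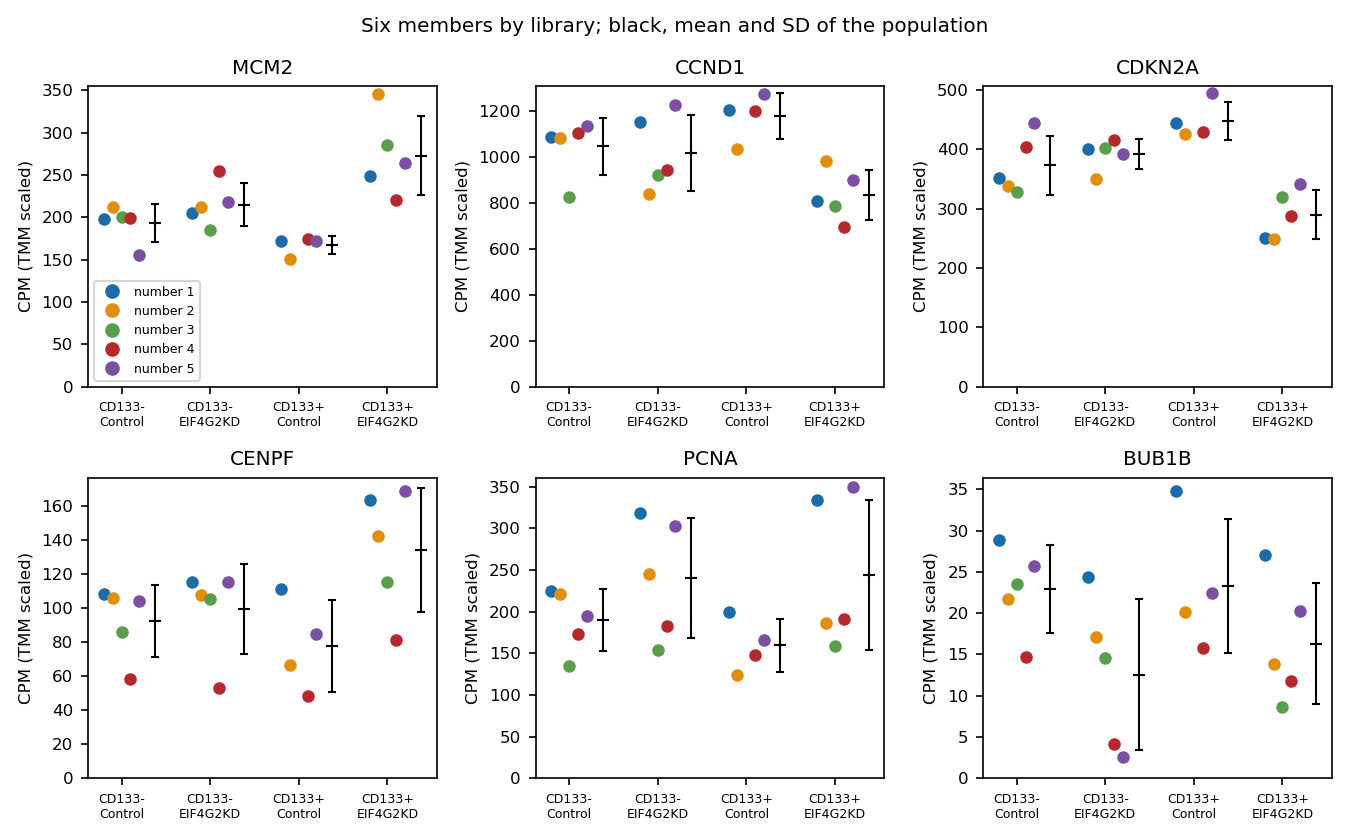
CPM (vertical axis, from 0) of 6 members in every library, with points coloured by library number and the mean with SD of each population in black. MCM2, CCND1 and CDKN2A do not overlap between the CD133+ populations, while CENPF, PCNA and BUB1B overlap there.

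CENPF, a kinetochore protein of late G2 and mitosis, had the largest positive value of any member in CD133+ cells without passing the test. Its levels were 112, 66.7, 48.3 and 84.7 CPM in CD133+ Control 1, 2, 4 and 5 and 164, 143, 116, 81.4 and 169 CPM in CD133+ EIF4G2KD 1 to 5. The populations overlapped, through the control numbered 1 and the knock-down numbered 4, and the log2 fold change was 0.79 (SE 0.26, adjusted p = 0.073 by edgeR). It passed without CD133- EIF4G2KD 4, CD133+ Control 1 or CD133+ EIF4G2KD 4, with an adjusted p down to 0.031, and its place on a chromosome arm that was higher as a whole is given above. PCNA, the sliding clamp of DNA polymerase, was at 199, 124, 148 and 165 CPM in the controls and at 334, 186, 159, 191 and 350 CPM in the knock-down libraries, with a log2 fold change of 0.61 (SE 0.25, adjusted p = 0.16). AURKA, the centrosomal Aurora kinase, was at 81.4, 69.0, 43.4 and 88.4 CPM and at 114, 89.0, 119, 54.9 and 105 CPM in the same libraries, with a log2 fold change of 0.45 (SE 0.23, adjusted p = 0.30). In each of these 3 genes the knock-down mean was higher but the lowest knock-down library was below the highest control library. Between libraries of the same number, the knock-down library was the higher one for all 4 numbers in each of the 3 genes, and their calls depend on whether the number enters the fit.

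The remaining members are given by role for the knock-down in CD133+ cells, with calls from the fit without the library number. With the number in the fit GMNN passed, as CENPF, PCNA and AURKA did. Of the 9 licensing and helicase genes, 7 had positive values, with a median of 0.19 on the log2 scale, and MCM2 alone passed. Its partners in the ring MCM3 to MCM7 ran from -0.23 to 0.21. The loading factors CDC6 and CDT1 and the licensing inhibitor GMNN did not pass either, GMNN at 0.48 (SE 0.25, adjusted p = 0.29). Of the 6 genes of D-type cyclins, their kinases and the RB1 switch, 5 had negative values, and CCND1 alone passed. RB1 was at -0.60 (SE 0.36, adjusted p = 0.40). All 4 genes of cyclin E, CDK2 and the activating phosphatase CDC25A had negative values, from -0.60 to -0.02, and none passed. The 5 mitotic kinase, spindle and passenger complex genes ran from 0.00 to 0.45, the 5 genes of mitotic cyclins, CDK1 and CDC25B from -0.44 to 0.14, and the 4 checkpoint and anaphase genes from -0.50 to 0.29, with none past the test. The 5 genes of nucleotide supply and the replication clamp ran from -0.17 for TK1 to 0.61 for PCNA, with the ribonucleotide reductase subunits RRM1 and RRM2 at -0.00 and -0.16 and thymidylate synthase TYMS at 0.01. TOP2A was at -0.43 (SE 0.37), MKI67 at -0.07 and CDKN1B, the CDK inhibitor p27, at -0.07, and none of these passed.

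**Figure D3:**
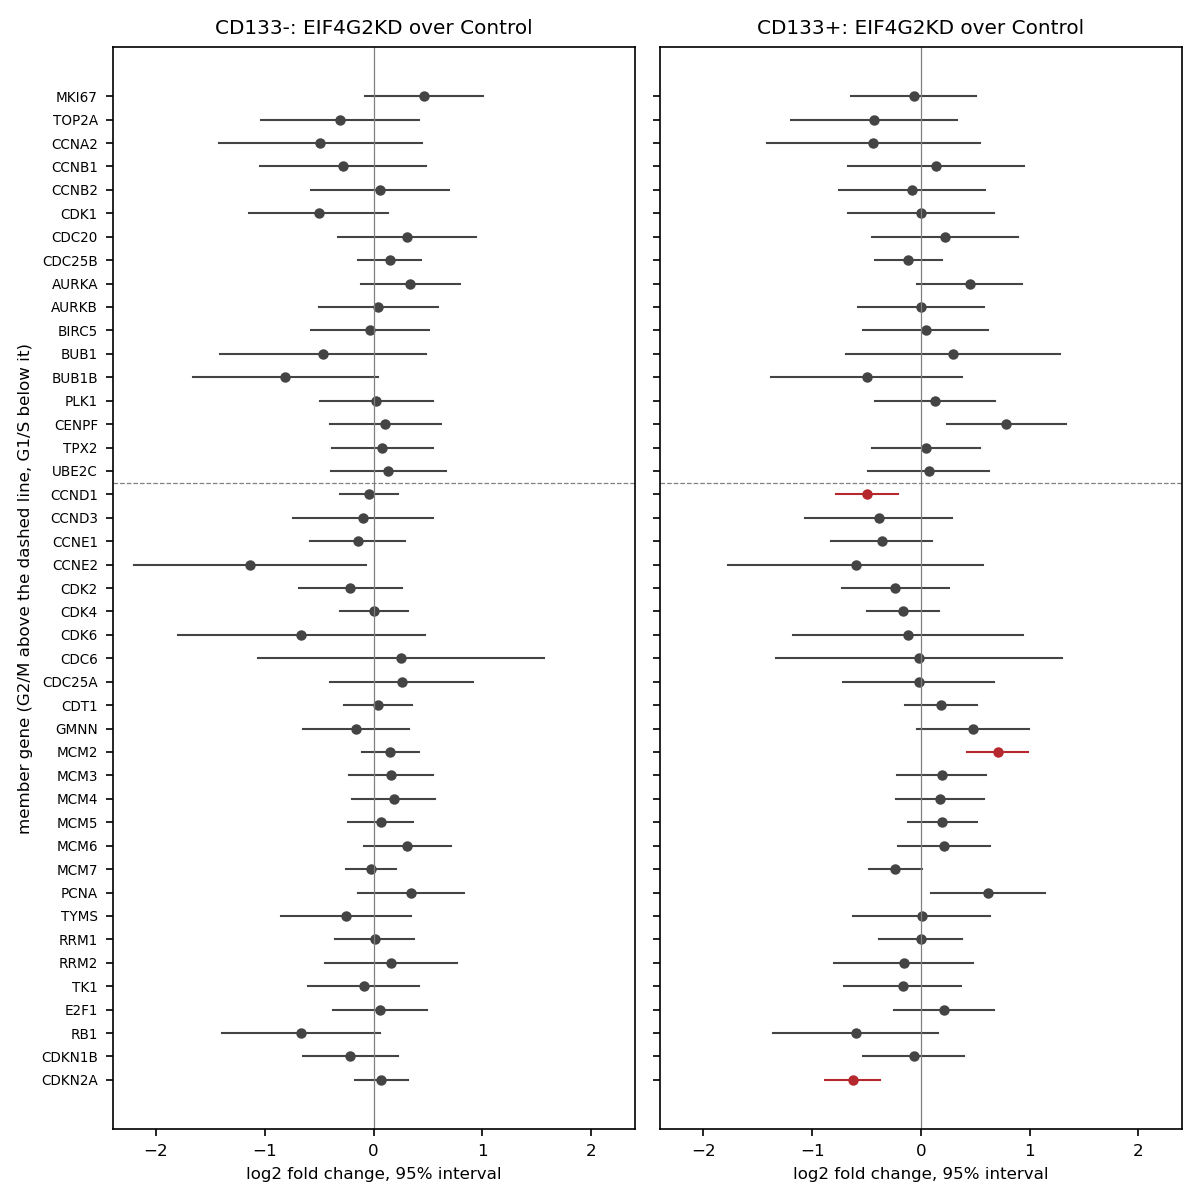
Log2 fold change with its 95% interval (horizontal axis) of the 43 tested members for EIF4G2KD over Control in CD133- cells (left) and CD133+ cells (right); red marks an adjusted p below 0.05. MCM2, CCND1 and CDKN2A are red on the right and no gene is red on the left.

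Sorting on CD133 left no member past the test between the controls (CD133- Control over CD133+ Control), where 0.261% of all tested genes passed (27 genes) and DESeq2 likewise called no member. At an unadjusted p below 0.05 there were 2 members, MCM7 at -0.34 and CDKN2A at -0.26 on the log2 scale, against 4.34% of all tested genes. In this comparison the tested genes of chromosome 7, which holds MCM7, had a median of -0.10. Those of the short arm of chromosome 9, which holds CDKN2A, had a median of -0.16. The median log2 fold change of the members was 0.03, the intervals of 38 of 43 lay within a 2-fold change either way, and no member's populations failed to overlap (1.33% of all tested genes lay wholly higher and 1.11% wholly lower). Between the knock-down populations the median was 0.01, and CDKN2A, MCM2 and CCND1 had an unadjusted p below 0.05, 3 of 43 members against 20.2% of all tested genes. The phosphatase CDC25B, which activates CDK1, had the smallest p of its role there. It was at 230, 246, 355, 270 and 259 CPM in CD133- EIF4G2KD 1 to 5 and at 174, 231, 267, 243 and 206 CPM in CD133+ EIF4G2KD 1 to 5, which overlapped, with a log2 fold change of 0.28 (SE 0.14, adjusted p = 0.27 by edgeR).

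The level of the G2/M members differed more among libraries of the same population than the population means differed from each other. Averaged over the 17 genes on the log2 CPM scale, and given as the difference from the mean of all 19 libraries, they were at 0.33, 0.24, -0.12, -0.37 and 0.33 in CD133- Control 1 to 5 and at 0.47, 0.04, 0.12, -0.78 and -0.34 in CD133- EIF4G2KD 1 to 5. They were at 0.43, -0.19, -0.53 and 0.31 in CD133+ Control 1, 2, 4 and 5 and at 0.45, 0.02, -0.34, -0.50 and 0.44 in CD133+ EIF4G2KD 1 to 5. In every population the highest library was the one numbered 1 and the lowest the one numbered 4. Number 5 was close to number 1 in CD133- Control and CD133+ EIF4G2KD. Over the 6 members with transcript GC content above the median of tested genes, number 5 was the highest except in CD133+ Control. Over the 11 below that median, number 3 was the lowest in CD133+ EIF4G2KD. The population means, which ran from -0.10 to 0.08, differed by at most 1.13-fold, and a mean of 4 or 5 libraries varies less than a single library. The libraries spanned 2.39-fold, with both ends in CD133- EIF4G2KD, and the SD within a population was 0.31 to 0.48. The 26 tested G1/S members spanned 1.63-fold over the libraries and 1.08-fold over the population means. The library numbered 1 was again the highest in all 4 populations, but the lowest was numbered 3, 4, 2 and 4.

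**Figure D4:**
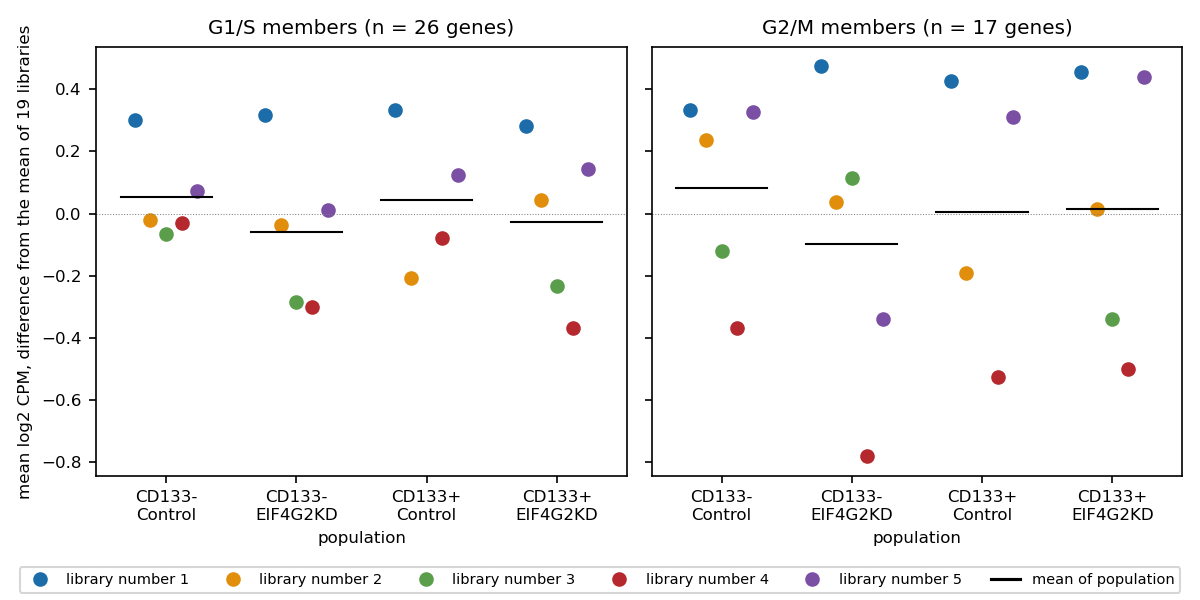
Mean log2 CPM of the 26 G1/S (left) and 17 G2/M (right) members in each library, as the difference from the mean of 19 libraries (vertical axis), by population (horizontal axis) and library number (colour); black lines are population means. In the G2/M panel the libraries numbered 1 are the highest and those numbered 4 the lowest in each population.

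In the shares of all counts the library numbered 4 was again the lowest of each population. The library numbered 1 was the highest except in CD133+ EIF4G2KD, where number 5 was at 0.333% and number 1 at 0.322%. The G2/M members took 0.31% to 0.34% of the counts in the 4 libraries numbered 1 and 0.27% to 0.33% in those numbered 5. The shares were 0.20% to 0.29% and 0.22% to 0.27% in the libraries numbered 2 and 3, and 0.15% to 0.18% in those numbered 4, which lay below all 15 others. Depth did not follow the same order: the libraries numbered 1 were deep (3607114 to 5234905 counts) and those numbered 4 shallower (2198601 to 3145045), but those numbered 2 were the shallowest (1679447 to 2592492). Ribosomal protein genes took 12.9% to 13.2% of counts in libraries numbered 1 and 15.1% to 15.9% in those numbered 4. The part of depth and of this share in the G2/M levels was not tested.

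Gene by gene, 16 of the 17 G2/M members were lower in the library numbered 4 than in that numbered 1 in each of the 4 populations, where 48.5% to 50.4% of all tested genes were. For CDC20, the activator of the anaphase-promoting complex, the levels were 460, 456, 223, 231 and 446 CPM in CD133- Control 1 to 5 and 548, 252, 192 and 471 CPM in CD133+ Control 1, 2, 4 and 5. PLK1, the Polo-like kinase, was at 114, 122, 103, 68.8 and 168 CPM and at 140, 90.7, 68.0 and 139 CPM in the same libraries. CDC25B was the exception, at 202 and 231 CPM in CD133- Control 1 and 4, 214 and 237 in CD133+ Control 1 and 4, and higher in number 4 in the knock-down populations too. Over the 17 genes the library numbered 4 was below that numbered 1 by 0.70, 1.26, 0.95 and 0.95 on the log2 scale in CD133- Control, CD133- EIF4G2KD, CD133+ Control and CD133+ EIF4G2KD, with a mean difference of -0.97. These numbers were picked after the levels were seen, so the difference is a description with no test.

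Each gene's variance over the libraries was split between the library number (5 levels) and the population (4 levels), each taken after the other. The number took a median of 58.0% of the variance of a G2/M member and the population a median of 15.2%, and the number took the larger part in 16 of 17 genes. For the G1/S members the medians were 56.0% and 16.3% (20 of 26 genes), and for all tested genes 32.4% and 22.9%. PLK1 (88.4% and 1.34%), the D-type cyclin CCND3 (87.3% and 3.67%), UBE2C (87.2% and 7.42%) and TK1, the thymidine kinase of S phase (85.2% and 2.52%), stood highest for the number. CCND3 was at 167, 89.4, 82.5, 83.8 and 134 CPM in CD133- Control 1 to 5, so that numbers 1 and 5 were its highest libraries there. The licensing factor CDT1, whose protein is destroyed as S phase begins, ran the other way, at 217 and 282 CPM in CD133- Control 1 and 4 and at 213 and 359 CPM in CD133+ EIF4G2KD 1 and 4. MCM2 (3.15% and 69.6%) and CDKN2A (15.6% and 71.3%) stood at the other end, with most of their variance between populations.

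In 3 of the 4 libraries apart, CD133- EIF4G2KD 4 and 5 and CD133+ EIF4G2KD 3, some G2/M genes lay below the range of the 15 other libraries and others did not, while in CD133- EIF4G2KD 2 none did. In CD133- EIF4G2KD 5, which had the lowest EIF4G2, TOP2A, the topoisomerase that untangles sister chromatids, was at 16.3 CPM, where the 15 libraries that were not set apart ran from 62.1 to 154. CCNB1, cyclin B1, was at 77.9 CPM (130 to 386 in the 15), CDK1 at 26.5 (62.9 to 140) and BUB1 at 4.28 (12.2 to 47.0). In the same library CDC20 was at 669 CPM (192 to 548 in the 15), AURKA at 145 (43.4 to 114) and UBE2C, the ubiquitin-conjugating enzyme of the anaphase-promoting complex, at 295 (99.9 to 246). Of the G2/M genes whose promoters are printed above, TOP2A and CCNB1 thus lay below the 15 libraries in CD133- EIF4G2KD 5 and CDC20 above them. The part of the promoters in these levels was not tested.

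The members that were low there had transcripts of low GC content. The median GC content of the tested genes' transcripts (MANE Select, 9472 genes) was 50.0%, and 11 of the 17 G2/M members lay below it, among them CDK1 (35.4%), TOP2A (38.9%), CCNA2 (41.9%) and CCNB1 (41.9%), while CDC20 (56.9%), PLK1 (57.1%) and UBE2C (51.1%) lay above it. Below the range of the 15 libraries were 6 of these 11 in CD133- EIF4G2KD 5, 7 in CD133- EIF4G2KD 4, 5 in CD133+ EIF4G2KD 3 and 0 in CD133- EIF4G2KD 2. None of the 6 members above the median was, in any of the 4. The divide was less sharp in 48 tested G2/M genes outside the members. In the same order of libraries, 11, 14, 7 and 3 of the 37 under the median lay below the range. Of the 11 above the median, 0, 2, 1 and 0 did. Low GC content did not go with a low level throughout: AURKA (44.4%) and MKI67 (48.3%), the proliferation antigen Ki-67, lay below the median but above the range of the 15 libraries in CD133- EIF4G2KD 5. Of all tested genes with a transcript, 37.3%, 28.7%, 21.6% and 13.8% of those under the median and 4.88%, 4.84%, 6.12% and 9.76% of those over it lay below the range in these libraries. Across the 17 members the correlation of GC content with the log2 difference from the 15 libraries was r = 0.68 (rho = 0.62) in CD133- EIF4G2KD 5 and 0.61 (0.64) in CD133- EIF4G2KD 4. It was 0.58 (0.55) in CD133+ EIF4G2KD 3 and 0.05 (0.04) in CD133- EIF4G2KD 2. Across all 9472 genes r was 0.43, 0.40, 0.25 and -0.06 in the same order, as a description over genes that share a library. Across the 48 other G2/M genes it was 0.48, 0.31, 0.11 and 0.04. This split was chosen after the values were seen, and whether it belongs to the knock-down or to these libraries cannot be told apart. The transcript of EIF4G2 itself, with a GC content of 43.4%, also lay below the median. The part of GC content in the low EIF4G2 of the 4 libraries was not tested.

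**Figure D5:**
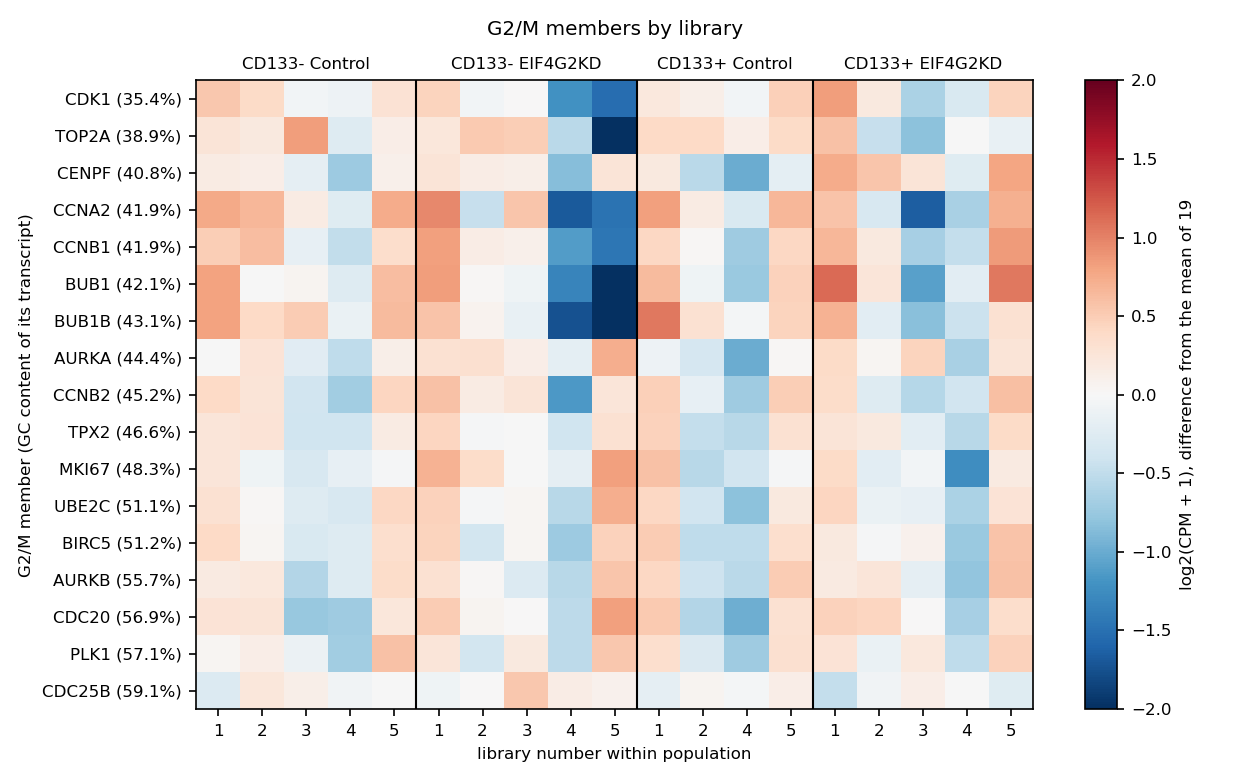
Log2(CPM + 1) of the 17 G2/M members as the difference from the mean of 19 libraries (colour, red higher and blue lower), with genes ordered by the GC content of their transcript (rows) and libraries by population and number (columns). CD133- EIF4G2KD 5 is blue for CDK1, TOP2A, CCNA2, CCNB1, BUB1 and BUB1B and red for CDC20, AURKA and UBE2C.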

How the data were processed

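RNA of 19 sorted samples was counted. Per the labels and the study's methods, the authors used cutadapt for trimming, STAR (version 2.4.2a) with the hg38 genome for alignment (mm10 is named too), HTSeq for counts per gene and DESeq2. The authors deposited raw counts, which were used here, and a signal that is the same counts over each library's size factor. Their own comparisons (log2 fold changes, p-values) were not used. Libraries were pooled for amplification by similar PCR cycle, and the pools are not given.

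Counts were fitted with edgeR 4.0.16 (R 4.3.3): TMM scaling, filterByExpr (minimum count 10, total 15), 1 mean for each of 4 populations, glmQLFTest, and Benjamini-Hochberg adjustment over 10338 genes. Log2 CPM used a prior count of 2. SE and 95% intervals come from the same fit. The test was run on simulated counts first. Alternatives were DESeq2 1.42.0, RLE scaling, library totals, no filter, only the populations compared, the study's thresholds (adjusted p below 0.05, 1.5-fold, mean count above 10), the library number as a block, and leaving out libraries. Named were every member past the test, the member with the smallest p in each role group, EIF4G2 and PROM1; other genes were named after their values were seen. Chromosomes and transcripts came from GENCODE 44. The members, gene lists and comparisons were chosen with earlier results of these data known. Replicates are separate samples by the labels; where they shared a culture, p-values would measure technical spread. Libraries of a population differed from each other by more than counting noise (chi-square per degree of freedom 5.15 to 30.2).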

Additional observations from a re-analysis of the deposited data

Results flagged for a closer look

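Dixon's test for a value far from the rest of its population was run on the 11 named genes and the 2 phase means in each of 4 populations, 52 groups in all, and singled out 4, where chance alone gives about 1 in 20. CCND1 was low in CD133- Control 3 at 827 CPM (others 1082 to 1134). MCM2 was low in CD133- Control 5 at 155 CPM (others 198 to 213) and in CD133+ Control 2 at 151 CPM (others 172 to 174). CENPF was low in CD133- EIF4G2KD 4 at 53.0 CPM (others 105 to 116), the library with the lowest G2/M mean.

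For CDKN2A the difference between the knock-down effects in CD133+ and CD133- cells was -0.70 on the log2 scale (adjusted p = 0.034 by edgeR's interaction test), with all 5 CD133+ EIF4G2KD libraries lying below all 4 controls. The call was lost without any 1 of 12 of the 19 libraries (adjusted p up to 0.11), with library totals (0.051) and without the 4 libraries apart (0.097). The tested genes of the short arm of chromosome 9 had a median of -0.76 in the same contrast.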

How the results depend on the processing

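The counts of members past the test were 0 in CD133- cells and 0 between the controls under all alternatives run. The 3 calls in CD133+ cells became 2 at the study's thresholds and 2 to 4 when each library was left out in turn. With the library number as a replicate block, 7 of 43 members passed (5 higher, 2 lower). Of the 10338 tested genes 1701 did, a like share. The count was 8 with the block and without the 4 libraries apart. CENPF (log2 fold change 0.80, adjusted p = 9.4e-05 by edgeR), PCNA (0.70, 0.0014), AURKA (0.45, 0.030) and GMNN were the added calls under the block. The count of 1 between the knock-down populations became 3 with the block, where 1674 of all tested genes passed. It was also 3 with the block and without the 4 libraries. It became 0 with only the populations compared, at the study's thresholds or without the 4 libraries, and 0 to 1 leaving each library out. The count of 1 for the difference of the effects became 3 with the block, where 678 of all tested genes passed. It became 5 with the block and without the 4 libraries. It was 0 with library totals, 0 without the 4 libraries, and 0 to 1 without each library in turn. The shares of all genes with the block and without the 4 libraries are not given here. No value changed sign, and the cause of these changes was not tested. The block was not used as the main design. Among same-numbered libraries of different populations, 24 of 27 pairs had a correlation of their deviations above 0.1 (-0.23 to 0.70). Their median was 0.42, against -0.09 for differently numbered libraries of different populations. Of the 19 libraries, 12 correlated best with their own number. Libraries of 1 number thus shared part of their spread, which the main fit leaves in its error, but the numbers are not shown to pair the samples. Over all genes the counts, under DESeq2 and under the block, went from 1 to 42 and 90 in CD133- cells, from 27 to 54 and 78 between the controls and from 201 to 339 and 678 for the difference, and under the block alone from 813 to 1701 in CD133+ cells and from 797 to 1674 between the knock-down populations. The count of 1 in CD133- cells ran from 0 to 60 without each library in turn. Without the 4 libraries, the counts for the knock-down populations and the difference were 292 and 115, and with only the populations compared, those for the knock-down populations and the controls were 462 and 14. The difference in G2/M level between numbers 4 and 1 was -0.97 and ran from -1.04 to -0.97 under library totals, RLE scaling and a prior count of 0.5. These last settings and the block without the 4 libraries were chosen after seeing the data. Low members (CCNE2, CDK6, CDC6, CDKN2B) are limited by counting noise at this depth.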

Other observations

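Genes of the same pathways outside the 44 were read from lists compiled with earlier results known. In CD133+ cells, where 7.86% of all tested genes passed, 2 of 48 tested G2/M genes did: CKS1B, a CDK subunit that also helps degrade p27, rose by 1.00 on the log2 scale (SE 0.21, adjusted p = 0.0051 by edgeR), and HMGB2, a chromatin protein, fell by 0.65 (SE 0.19, adjusted p = 0.040). The share of all tested genes past the test was 0.00967% in CD133- cells, 0.261% between the controls, 7.71% between the knock-down populations and 1.94% for the difference of the effects. At an unadjusted p below 0.05 the shares were 10.6% in CD133- cells, 19.7% in CD133+ cells and 4.34% between the controls. They were 20.2% between the knock-down populations and 13.1% for the difference of the effects. Of 37 tested S phase genes none passed in any of the 5 comparisons by edgeR, with 1 to 3 at an unadjusted p below 0.05 except between the controls, where there was none. Of 17 tested genes of the RB, E2F and DREAM complexes, only LIN37, a DREAM subunit, passed in CD133+ cells: it fell by 0.50 (SE 0.14, adjusted p = 0.030). CKS1B lies on the long arm of chromosome 1 and LIN37 on that of chromosome 19, the arms whose genes had medians of 0.50 and -0.43 in that comparison. None of 14 subunits of the anaphase-promoting complex and none of 5 other CDK inhibitors passed in any comparison by edgeR, with 2 subunits at an unadjusted p below 0.05 in CD133- cells and 1 inhibitor in CD133+ cells. Between the knock-down populations HMGB2 (0.85), LIN37 (0.67) and E2F2 (0.95) were higher and LBR (-1.37) and CKS1B (-0.66) lower in CD133- cells. LBR and CKS1B lie on the long arm of chromosome 1, whose 446 tested genes had a median of -0.48 there with 112 past the test, and LIN37 on that of chromosome 19, with a median of 0.43 and 100 of 404 past it.

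The mean level of the 48 other G2/M genes was lowest in the library numbered 4 and highest in that numbered 1 in all 4 populations, and the number took a median of 60.4% of their variance against 14.4% for the population.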
